A study of Mus musculus with 12 samples.

Results

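The 10 genes of the BCL2 family and of the inhibitors of apoptosis described here were followed across 12 RNA-seq libraries of RAW 264.7 cells, an established mouse macrophage line of strain BALB/c. They were the listed rows of the expression table: Bcl2a1a, Bcl2a1b, Bcl2a1d, Bcl2l1, Mcl1, Bcl2l11, Pmaip1, Birc2, Birc3 and Cflar. All 10 were found among the 24421 gene symbols. The rule that lists them uses gene names alone, but the list was drawn up with earlier results of these data known. The study compared wild-type cells with Parp14 -/- cells (KO), in which the gene for a mono-ADP-ribosyltransferase is knocked out. Wild-type cells were left untreated, or were given LPS for 2 h, a Jak inhibitor, or LPS for 2 h plus the Jak inhibitor. LPS is lipopolysaccharide, a bacterial cell wall component sensed by TLR4. The sample titles name a time only for LPS. KO cells were left untreated or were given LPS for 2 h, and no KO library with the inhibitor was analysed here. Each of the 6 groups had 2 libraries, numbered 1 and 2 in the labels. The labels do not say whether the libraries of a group came from separate cultures, so the p-values measure the spread between libraries, which may be technical. The sources used here do not say how the knockout was made, how many KO clones there were, or which inhibitor was used at what dose.

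BCL2 family proteins set whether the outer membrane of the mitochondrion is opened. Anti-apoptotic members such as BCL-XL (Bcl2l1), MCL1 and the A1 proteins (Bcl2a1) hold the pore formers BAX and BAK in check, and BH3-only proteins such as BIM (Bcl2l11) and NOXA (Pmaip1) bind the anti-apoptotic members and release that hold. The cellular inhibitors of apoptosis cIAP1 (Birc2) and cIAP2 (Birc3) are ubiquitin ligases of TNF receptor complexes, and cFLIP (Cflar) holds caspase-8 in check at death receptors. In macrophages, TLR4 signals through NF-kB, and several of these genes are known NF-kB targets.

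The libraries held 35940669 to 45662896 reads in genes, and levels are given as CPM, each gene's counts scaled to the gene reads of its library. Parp14, the knocked-out gene, was at 76.4 and 99.7 CPM in untreated wild-type cells and at 10.0 and 11.97 CPM in untreated KO cells. The KO libraries stayed below the wild-type ones after LPS (34.9 and 40.5 against 315 and 419 CPM). Some Parp14 reads thus remained in KO cells and were higher with LPS, and which part of the gene they came from was not tested. The labelled cell type matched its markers: all 12 macrophage markers listed reached 1 CPM and summed to 12551 to 16596 CPM per library. Summed markers of T cells stayed at or below 3.36 CPM, those of B cells, fibroblasts, endothelial cells and granulocytes at or below 1.20 CPM, and the 5 epithelial markers had no read. In such bulk libraries, a larger share of cells with an RNA and more of it per cell cannot be told apart.

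The 3 Bcl2a1 rows are near-identical copies of one gene on chromosome 9, so their sequences are shown first. Bcl2a1a lies at chr9:88956900-88962419 on the plus strand, Bcl2a1b at chr9:89199209-89207827 on the plus strand and Bcl2a1d at chr9:88723285-88731914 on the minus strand (GRCm38, GENCODE M21). Each coding sequence has 519 bases, and Bcl2a1a and Bcl2a1b differ at 11 of them, Bcl2a1a and Bcl2a1d at 7, and Bcl2a1b and Bcl2a1d at 6. Coding bases 1 to 120 hold 7 of the 12 positions that differ among the copies, set in capitals.
Bcl2a1a: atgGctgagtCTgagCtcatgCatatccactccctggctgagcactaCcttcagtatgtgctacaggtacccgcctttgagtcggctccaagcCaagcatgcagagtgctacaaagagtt
Bcl2a1b: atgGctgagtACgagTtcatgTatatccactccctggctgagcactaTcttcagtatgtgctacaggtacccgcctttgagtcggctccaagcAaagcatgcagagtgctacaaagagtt
Bcl2a1d: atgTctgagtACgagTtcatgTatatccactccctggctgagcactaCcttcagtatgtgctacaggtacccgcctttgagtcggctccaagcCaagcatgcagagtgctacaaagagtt

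Only reads that cover such positions separate the copies. Of all 50-base stretches of its transcripts, 31.0% in Bcl2a1a, 20.8% in Bcl2a1b and 20.5% in Bcl2a1d occurred in no other gene's transcripts. At 100 bases the shares were 56.5%, 43.2% and 45.3%, against at least 92.4% for the other 7 genes at 50 bases. The sources used here do not state the read length. Values of the 3 copies are therefore uncertain in how reads were split among them and in level, and Bcl2a1b also shares 401 exon bases with the same-strand gene Gm29094. The share of counted alignments with no unique position was 28.6 to 32.1% in wild-type libraries and 33.2 to 34.9% in KO libraries, and its part in differences of these copies was not tested.

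The promoters of the copies were also alike, and are shown because the 3 genes moved together in every library with LPS. The RefSeq promoter table (GRCm38.p6) held 9 of the 10 genes, all but Pmaip1. In the 250 bases before the start site, each Bcl2a1 copy held TGANTCA, a loose form of the AP-1 motif that allows any middle base. The match was TGAATCA in each copy. Each also held GAGGAAGT, a motif of the macrophage factor PU.1. Both strands were searched. The 2 motifs do not overlap, and both are in capitals in these stretches of chr9:88956770-88956833 (plus), chr9:89199079-89199142 (plus) and chr9:88731931-88731994 (minus).
Bcl2a1a promoter: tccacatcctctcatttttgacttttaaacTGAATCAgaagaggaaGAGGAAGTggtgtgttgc
Bcl2a1b promoter: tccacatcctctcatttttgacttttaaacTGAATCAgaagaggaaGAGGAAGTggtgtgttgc
Bcl2a1d promoter: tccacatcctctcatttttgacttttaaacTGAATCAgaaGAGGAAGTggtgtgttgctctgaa
Of all 32851 promoter windows in the table, 6.75% held the AP-1 letters and 2.44% the PU.1 letters in the same 250 bases. Bcl2a1a and Bcl2a1b had the same letters throughout the stretch shown, so the copies are not separate examples.

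Among the single-copy genes, Mcl1 and Bcl2l1 held GGNNTTTCC, a form of the NF-kB motif, which 4.93% of all windows held. Birc2 held TGACGTCA, the cyclic AMP response element, found in 1.55% of windows. The stretches of Mcl1, at chr3:95658663-95658720 (plus), and Birc2, at chr9:7837068-7837122 (minus), show these matches in capitals, with that of Mcl1 on the opposite strand.
Mcl1 promoter: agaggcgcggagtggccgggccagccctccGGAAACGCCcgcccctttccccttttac
Birc2 promoter: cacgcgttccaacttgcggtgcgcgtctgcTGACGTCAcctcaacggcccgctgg
Of letters tied to interferon signalling, AAANNGAAA was in 3 of the 9 genes' windows (Bcl2l1, Birc2 and Birc3) and in 9.37% of all windows, and TTCNNNGAA was in none of the 9 and in 7.02% of all. A gene was counted if any of its windows held the letters, while the shares of all windows are per single window. The 2 measures are therefore not alike, and a gene with several windows is more easily counted. The matches of Birc2 to AAANNGAAA and to TGACGTCA were in different windows. A match is a description of letters, and its absence says only that these letters are not in the windows searched.

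LPS raised 9 of the 10 genes in wild-type cells, 9 of 10 in KO cells and 9 of 10 in wild-type cells that also had the Jak inhibitor. The exception in each was Pmaip1, which DESeq2 called higher in wild-type cells. Across all 10899 tested genes, the same test called 13.7%, 13.9% and 13.5% higher. The genes' median log2 change was 2.35 in wild-type cells, 2.31 in KO cells and 2.30 with the inhibitor, against medians of -0.30, -0.29 and -0.27 over all tested genes. Bcl2a1a passed the filter on low values only through the LPS groups. Among the other 9, which were at 1 CPM or more in every library, 8 were higher in each comparison, with medians of 1.99, 1.96 and 2.07. The LPS libraries of the 9 genes were both above both controls in each comparison, as were those of 19%, 18.9% and 18.4% of all tested genes. All changes are differences of log2(CPM + 1) from the limma fit, with Benjamini-Hochberg adjusted p over all tested genes.

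These levels are relative to the whole library, and the all-gene medians rose to -0.04, -0.03 and -0.03 when libraries were rescaled by the median of ratios. This shift of the whole table adds about the same amount to most genes, but less to genes with few reads. The wild-type change of Bcl2a1a went only from 2.998 to 3.13. With that scaling the split of all wild-type calls went from 13.7% higher and 53.6% lower to 26.4% higher and 32.5% lower. The KO split went from 13.9% and 52.7% to 26.7% and 33.1%, and the split with the inhibitor from 13.5% and 50.8% to 26.4% and 32.5%. The 9 increases held on either scale.

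**Figure D1:**
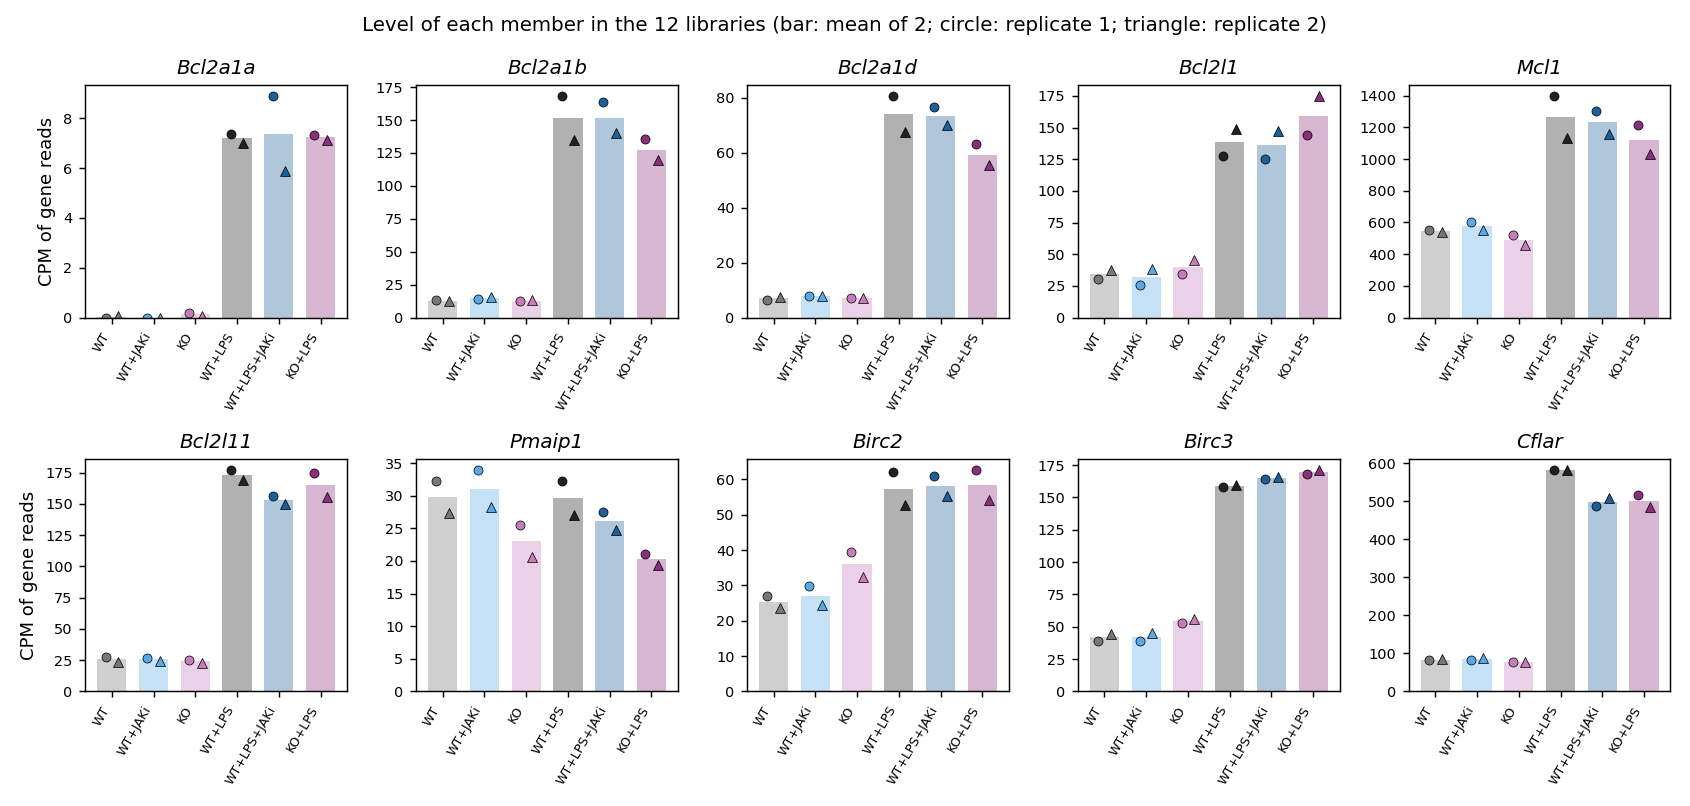
CPM of gene reads (linear axes from 0, each gene on its own scale) in the 6 groups, with a bar for the mean of 2 libraries, a circle for library 1 and a triangle for library 2. In 9 panels the 6 LPS libraries stand above the 6 libraries without LPS, and in the Pmaip1 panel the KO bars are the lowest of their treatment.

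Bcl2a1a was almost silent without LPS. The untreated wild-type libraries had 0 and 0.04998 CPM, the LPS libraries 7.36 and 7.02 CPM, the untreated KO libraries 0.201 and 0.0523 CPM, and the KO libraries with LPS 7.35 and 7.12 CPM. The inhibitor alone gave 0 and 0 CPM, and LPS plus inhibitor 8.89 and 5.87 CPM. No library without LPS came near a library with it. In reads, 2 over both untreated wild-type libraries stood against 624 with LPS, a ratio of 286 per gene read (exact binomial 95% interval 78.8 to 2367). The KO ratio, from 10 and 568 reads, was 56.4 (30.5 to 118), and with the inhibitor, from 0 and 552 reads, LPS gave at least 195-fold more over a floor of 3 reads over the group. These intervals cover counting error only. On the log2(CPM + 1) scale, which understates such low genes, the changes were 2.998, 2.87 and 3.04 (SE 0.15 each, adjusted p at most 2.2e-07).

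Bcl2a1b was the copy with the highest CPM. It was at 13.2 and 12.7 CPM in untreated wild-type cells and at 168 and 135 CPM after LPS. Its log2 change was 3.44 ± 0.11 (SE, adjusted p = 1.2e-08). In KO cells it went from 12.8 and 13.02 to 135 and 119.5 CPM, a change of 3.20 ± 0.11. With the inhibitor it went from 14.5 and 15.6 to 164 and 139.9 CPM, a change of 3.25 ± 0.11. The LPS libraries of all 3 pairs of groups lay about an order of magnitude above their controls.

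Bcl2a1d was at 6.41 and 7.55 CPM in untreated wild-type cells and at 80.6 and 67.7 CPM after LPS (log2 change 3.23 ± 0.11, adjusted p = 1.2e-08). The KO values went from 7.04 and 7.19 to 63.0 and 55.4 CPM (2.89 ± 0.11), and those with the inhibitor from 7.71 and 7.72 to 76.8 and 70.2 CPM (3.09 ± 0.11). Bcl2a1c, a further copy that is not among the 10 genes and differs more from them, was at 0.378 ± 0.039 CPM (SD, n = 2) in untreated wild-type cells and at 4.18 ± 0.023 CPM after LPS. Summed over the 3 copies, wild-type cells went from 19.6 and 20.3 to 256.2 and 209.8 CPM. KO cells went from 20.1 and 20.3 to 206 and 182 CPM. These sums do not depend on how counted reads were split among the 3 copies. They still leave out alignments with no unique position, whose share was larger in KO libraries.

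Mcl1, which encodes a short-lived anti-apoptotic protein, had the highest CPM of the 10 in every library. It lies at chr3:95658788-95663176 on the plus strand. It was at 552 and 538 CPM in untreated wild-type cells and at 1398 and 1135 CPM after LPS. In KO cells it went from 522 and 457 to 1216 and 1029.6 CPM, and with the inhibitor from 605 and 552 to 1306 and 1157 CPM. The groups with and without LPS did not overlap. The log2 changes were 1.21 (SE 0.12, adjusted p = 1.6e-05), 1.19 and 1.09, so Mcl1 was higher by about the same factor in each.

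Bcl2l1 encodes BCL-XL and lies at chr2:152780668-152831728 on the minus strand. LPS took it from 30.6 and 37.7 to 128 and 149 CPM in wild-type cells, from 34.8 and 45.7 to 144 and 175 CPM in KO cells, and from 25.7 and 38.5 to 125 and 147 CPM with the inhibitor. Every LPS library was above every library without LPS. The log2 changes were 1.99 ± 0.20 (SE, adjusted p = 1.6e-05), 1.96 ± 0.20 and 2.07 ± 0.20. Summed over the 5 anti-apoptotic BCL2 genes, wild-type libraries went from 603 and 596 to 1782 and 1494 CPM, most of which was Mcl1.

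The BH3-only pair split. Bcl2l11, which encodes BIM and lies at chr2:128126038-128162547 on the plus strand, rose with LPS as the anti-apoptotic genes did. It was at 27.6 and 23.8 CPM in untreated wild-type cells and at 177 and 169 CPM after LPS (log2 change 2.71 ± 0.09, SE, adjusted p = 1.2e-08). KO cells went from 25.4 and 23.0 to 174 and 156 CPM (2.72 ± 0.09), and cells with the inhibitor from 26.8 and 24.7 to 156 and 149.6 CPM (2.53 ± 0.09). The wild-type and KO changes differed by 0.01 (95% interval -0.27 to 0.30).

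Pmaip1, which encodes NOXA, a partner of MCL1, lies on chromosome 18 and was the only one of the 10 that did not pass as higher with LPS in limma. Wild-type libraries had 32.3 and 27.4 CPM untreated and 32.2 and 27.1 CPM after LPS, which overlapped fully. KO libraries had 25.5 and 20.6 CPM untreated and 21.1 and 19.4 CPM after LPS, and libraries with the inhibitor had 34.0 and 28.2 CPM without LPS and 27.5 and 24.7 CPM with it. The KO groups overlapped and the groups with the inhibitor did not. The log2 change was -0.01 in wild-type cells (95% interval -0.32 to 0.30, adjusted p = 0.96), -0.17 in KO cells (-0.48 to 0.14, adjusted p = 0.29) and -0.24 with the inhibitor (-0.55 to 0.07, adjusted p = 0.16). With the replicate number as a block, the last 2 passed the test as lower (adjusted p = 0.017 and 0.0023), but the sign of all 3 flipped under median-of-ratios scaling, to 0.27, 0.09 and 0.01. The count-based tools also gave a positive sign in wild-type cells, with 0.30 in edgeR (adjusted p = 0.082) and 0.33 in DESeq2 (0.044, called higher). On either scale, then, the change of Pmaip1 was small beside those of the other 9 genes, the smallest of which was 0.69.

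Birc2 and Birc3 are neighbours on the minus strand of chromosome 9, at chr9:7818227-7837064 and chr9:7848699-7873186, with 11634 bases between them. Birc2 went from 27.0 and 23.6 to 62.1 and 52.7 CPM in wild-type cells, from 39.5 and 32.4 to 62.7 and 54.2 CPM in KO cells, and from 29.7 and 24.5 to 60.9 and 55.2 CPM with the inhibitor. Its log2 changes were 1.15 ± 0.14 (SE, adjusted p = 4.5e-05), 0.69 ± 0.14 (adjusted p = 0.0013) and 1.07 ± 0.14. The LPS libraries were higher than their controls in all 3, with the smallest step in KO cells.

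Birc3 rose more than its neighbour did. It went from 39.3 and 44.7 to 158 and 159 CPM in wild-type cells, from 52.6 and 56.2 to 168 and 171 CPM in KO cells, and from 38.6 and 45.5 to 164 and 166 CPM with the inhibitor. The log2 changes were 1.90 ± 0.09 (SE, adjusted p = 8.6e-08), 1.62 ± 0.09 and 1.95 ± 0.09. The 6 LPS libraries all lay within 158 to 171 CPM, whatever the genotype or inhibitor.

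Cflar lies at chr1:58711508-58758884 on the plus strand. It went from 82.3 and 85.1 to 582 and 581 CPM in wild-type cells, from 78.1 and 78.5 to 515 and 485 CPM in KO cells, and from 82.8 and 87.3 to 488 and 509 CPM with the inhibitor. The log2 changes were 2.78 ± 0.06 (SE, adjusted p = 8.3e-10), 2.66 ± 0.06 and 2.54 ± 0.06. No LPS library overlapped a library without LPS. Among the LPS groups the wild-type libraries without inhibitor were the highest.

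**Figure D2:**
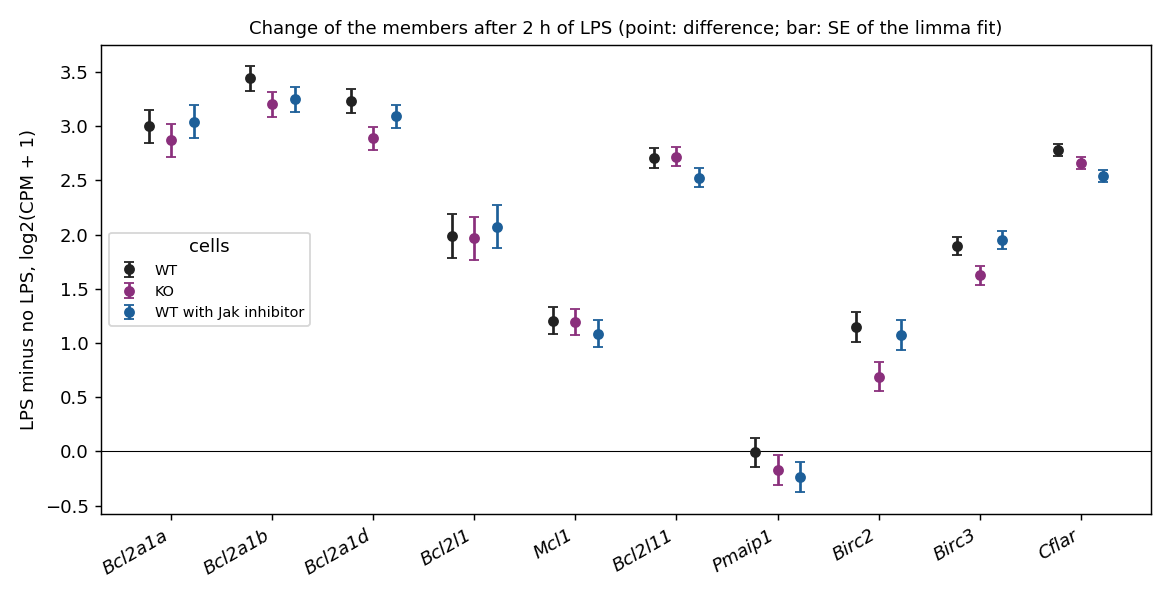
Difference of log2(CPM + 1) between libraries with and without LPS (vertical axis) for each gene, with bars for the SE of the limma fit, in wild-type cells (black), KO cells (purple) and wild-type cells with the Jak inhibitor (blue). The 9 increases lie between 0.69 and 3.44, and Pmaip1 lies between -0.24 and -0.01.

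Without treatment, the KO cells differed from wild-type cells in 1 of the 10 genes. Birc3 was higher, at 52.6 and 56.2 CPM in KO against 39.3 and 44.7 CPM in wild-type libraries, which did not overlap. Its log2 difference was 0.37 ± 0.09 (SE, adjusted p = 0.024). In the same comparison 9.68% of all tested genes were called, 4.31% as higher, so 1 of 10 is close to the background. The call of Birc3 was lost without wild-type library 1 (adjusted p = 0.20), KO library 1 (0.0706) or KO library 2 (0.15), and in a fit of these 2 groups alone (0.059).

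Birc2 had the larger difference, 0.49 ± 0.14, but missed the threshold (adjusted p = 0.054). Its KO libraries, at 39.5 and 32.4 CPM, were both above the wild-type ones, at 27.0 and 23.6 CPM. It passed under median-of-ratios scaling (adjusted p = 0.039), edgeR (0.042) and DESeq2 (0.0047), and with the replicate block (7.4e-06). Between libraries of the same number, KO exceeded wild type by 0.53 and 0.44 for Birc2 and by 0.41 and 0.33 for Birc3 on the log2 scale. Summed, the 2 cIAP genes were at 92.1 and 88.6 CPM in KO and at 66.3 and 68.2 CPM in wild-type cells.

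Pmaip1 was at 25.5 and 20.6 CPM in untreated KO cells and at 32.3 and 27.4 CPM in wild-type cells, which did not overlap. Its difference of -0.36 (95% interval -0.67 to -0.05) did not pass (adjusted p = 0.16), and passed with the replicate block (4.6e-04). Bcl2l1 differed by 0.22 (-0.23 to 0.68, adjusted p = 0.67, 0.029 with the block) with overlapping libraries, 30.6 and 37.7 CPM against 34.8 and 45.7 CPM. With the block the count was 4 of 10, with 3 higher (Birc2, Birc3 and Bcl2l1) and 1 lower (Pmaip1), while 24.6% of all tested genes passed.

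The remaining 6 genes did not pass in untreated cells in either fit. Mcl1 differed by -0.16 (95% interval -0.43 to 0.12, adjusted p = 0.050 with the block, just above the threshold), Cflar by -0.10 (-0.22 to 0.03) and Bcl2l11 by -0.08 (-0.28 to 0.12). Among the Bcl2a1 copies, Bcl2a1b differed by 0.00 (-0.26 to 0.25), Bcl2a1d by 0.03 (-0.21 to 0.27) and Bcl2a1a by 0.13 (-0.21 to 0.47). For Bcl2a1a, with 2 and 10 reads over the untreated wild-type and KO libraries, the pseudocount holds this difference near 0, and edgeR gave a log2 difference of 2.21 (adjusted p = 0.35). Of the 10 genes, 6 had libraries that did not overlap between the genotypes, against 47.9% of all tested genes.

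After LPS, 2 of the 10 genes were lower in KO than in wild-type cells and none was higher, where 13.9% of all tested genes were called, 7.66% as lower. Pmaip1 was at 21.1 and 19.4 CPM in KO against 32.2 and 27.1 CPM in wild-type libraries, a log2 difference of -0.52 ± 0.14 (SE, adjusted p = 0.033). Cflar was at 515 and 485 CPM in KO against 582 and 581 CPM, a difference of -0.22 ± 0.06 (adjusted p = 0.031). Neither pair of groups overlapped. Both calls rested on few libraries. Pmaip1 missed the threshold without wild-type library 1 (adjusted p = 0.21), KO library 1 (0.088) or KO library 2 (0.16), and with no filter on low values (0.061). Cflar missed it without wild-type library 1 (0.12) or 2 (0.11) or KO library 1 (0.057) or 2 (0.19), and in a fit of these 2 groups alone (0.18).

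Bcl2a1d was at 63.0 and 55.4 CPM in KO against 80.6 and 67.7 CPM in wild-type cells with LPS. Its libraries did not overlap, and its difference was -0.32 (95% interval -0.56 to -0.08, adjusted p = 0.086). Bcl2a1b, at 135.3 and 119.5 CPM against 168 and 135.1 CPM, had overlapping libraries and a difference of -0.24 (-0.50 to 0.01, adjusted p = 0.22). Bcl2a1a differed by 0.01 (-0.33 to 0.35). The KO libraries had the larger share of alignments with no unique position given above, and its part in the lower values of these copies was not tested.

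The replicate block raised the count after LPS to 6 of 10, with 31.5% of all tested genes called. Lower in KO were Pmaip1 (adjusted p = 1.2e-05), Cflar (0.0018), Bcl2a1d (0.014), Mcl1 (0.028) and Bcl2a1b (0.034), and Bcl2l1 was higher (0.041). Mcl1, at 1216 and 1029.6 CPM against 1398 and 1135 CPM, differed by -0.17 (95% interval without the block -0.45 to 0.10). Bcl2l1, at 144 and 175 CPM against 128 and 149 CPM, differed by 0.20 (-0.25 to 0.65). Both had overlapping groups, and in both the KO value lay on the same side within each library number.

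Bcl2l11, Birc2 and Birc3 did not pass after LPS in either fit, with differences of -0.07 (95% interval -0.27 to 0.13), 0.03 (-0.28 to 0.33) and 0.10 (-0.09 to 0.29). Birc2 was at 62.7 and 54.2 CPM in KO and at 62.1 and 52.7 CPM in wild-type cells. The libraries of 4 of the 10 genes did not overlap between genotypes after LPS, against 49.4% of all tested genes. The untreated and the LPS comparison use different libraries of each genotype.

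**Figure D3:**
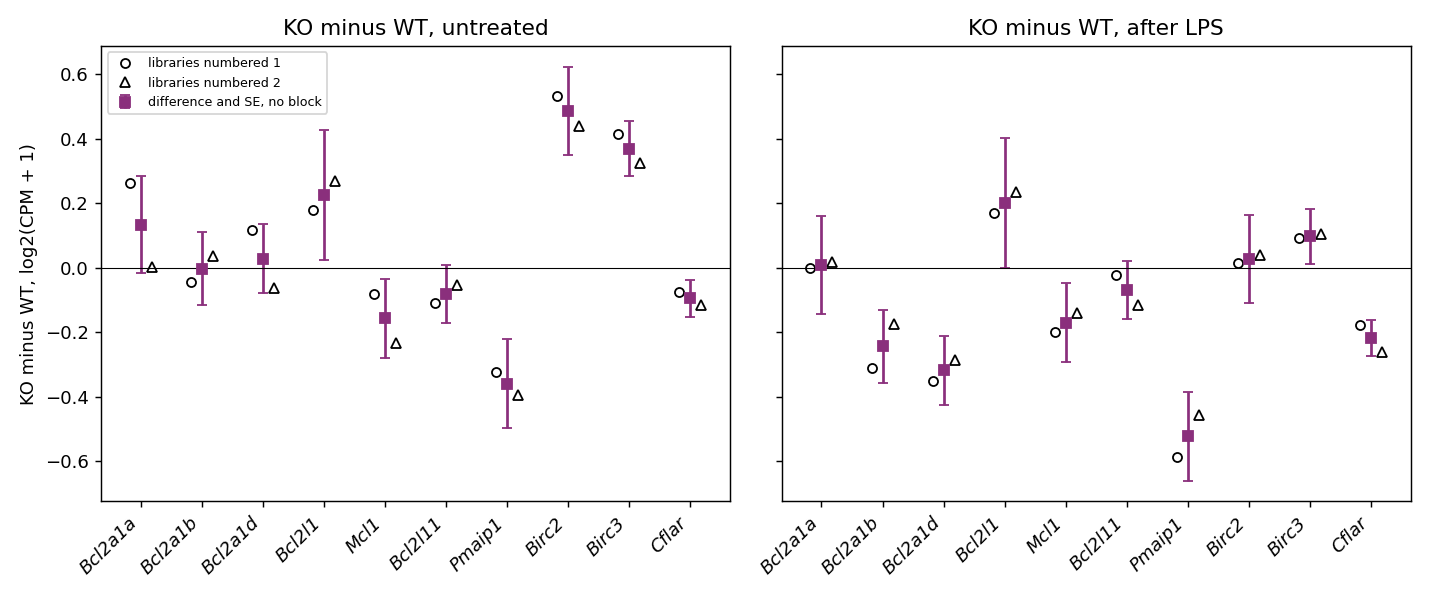
KO minus wild-type difference of log2(CPM + 1) for each gene, untreated (left) and after LPS (right), with circles and triangles for libraries numbered 1 and 2 and squares with SE bars for the limma fit without a block. Birc2 and Birc3 lie above 0 untreated, at 0.49 and 0.37, and Pmaip1 lies below 0 in both panels, at -0.36 and -0.52.

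Whether LPS acted differently in the 2 genotypes was tested as the difference of the LPS changes. None of the 10 genes passed in limma, with 3 at an unadjusted p under 0.05, and none passed in edgeR or DESeq2, while 0.413% of all tested genes were called. On the log2(CPM + 1) scale Birc2 had the largest difference, with a smaller LPS change in KO (-0.46, 95% interval -0.89 to -0.03, adjusted p = 0.74). With the replicate block Birc2 passed (adjusted p = 0.0021), where 3.79% of all tested genes did. Its steps within library numbers were 1.18 and 1.13 in wild-type and 0.66 and 0.73 in KO cells. Bcl2a1d differed by -0.35 (-0.68 to -0.01, adjusted p = 0.79) and Birc3 by -0.27 (-0.54 to just under 0, adjusted p = 0.81, 0.090 with the block). For the other 7 genes the difference lay between -0.24 and 0.01 on this scale. Bcl2a1a, whose read ratios above were 286 and 56.4, was at -0.13 there and at -2.20 in edgeR, without passing in either.

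The Jak inhibitor left the LPS levels of the 10 genes without a called difference. None of the 10 passed against LPS alone in limma, with 1 at an unadjusted p under 0.05, or in edgeR, with 2, while 1.11% of all tested genes were called. Cflar came nearest, at 488 and 509 CPM against 582 and 581 CPM with LPS alone, which did not overlap. Its difference was -0.22 (95% interval -0.35 to -0.10, adjusted p = 0.19), and it passed in DESeq2 (0.0077) and with the replicate block (0.012), with which 4.09% of all tested genes passed. The KO and the inhibitor comparison of Cflar share the wild-type LPS libraries, so their equal differences are not independent.

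Bcl2l11 was at 156 and 149.6 CPM with LPS plus inhibitor against 177 and 169 CPM with LPS, a difference of -0.18 (95% interval -0.38 to 0.03, adjusted p = 0.77, 0.058 with the block). Pmaip1 differed by -0.17 (-0.48 to 0.13) and Birc3 by 0.05 (-0.14 to 0.25). The other 6 genes differed by -0.03 to 0.02. Their intervals reached from -0.47 at the lowest to 0.43 at the highest, both for Bcl2l1. Libraries of 3 genes (Cflar and Bcl2l11 lower, Birc3 higher) did not overlap between these groups, against 29.8% of all tested genes.

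For the inhibitor without LPS, none of the 10 genes passed, with 0 at an unadjusted p under 0.05 and 0% of all tested genes called. The differences lay between -0.11 for Bcl2l1 (95% interval -0.56 to 0.34) and 0.20 for Bcl2a1b (-0.05 to 0.45). Bcl2a1b and Bcl2a1d had libraries that did not overlap between these groups, against 25.3% of all tested genes. The test of whether the inhibitor altered the LPS change called none of the 10 either, with 1 at an unadjusted p under 0.05 and 0.587% of all tested genes called. Cflar had the largest difference there, -0.24 (-0.42 to -0.06, adjusted p = 0.49, 0.057 with the block).

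Levels of different genes can be compared only per length, as CPM per kb of merged exon. Merged exon takes in every annotated transcript of a gene, and which of them the cells made was not tested. For the 3 Bcl2a1 copies, much of this length is shared with other genes, and alignments with no unique position were not counted. Their levels per kb may therefore be too low, and their ranks against the other genes, including Mcl1, are uncertain. In untreated wild-type cells Mcl1 was far above the rest at 159.5 ± 2.99 CPM per kb (SD, n = 2), followed by Bcl2a1b at 15.9 ± 0.49 and Pmaip1 at 10.9 ± 1.3. Birc3 (8.38 ± 0.76), Bcl2a1d (8.09 ± 0.93), Bcl2l1 (7.45 ± 1.1) and Cflar (6.61 ± 0.16) came next, and neighbours in this run did not differ beyond their spread. Birc2 was at 5.52 ± 0.52, Bcl2l11 at 3.20 ± 0.33 and Bcl2a1a at 0.031 ± 0.043 CPM per kb.

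After LPS the order of the 10 by this measure changed, with the places of the Bcl2a1 copies uncertain as above. Mcl1 stayed at rank 1 with 371 ± 54 CPM per kb, followed by Bcl2a1b at 186 ± 29 and Bcl2a1d at 85.9 ± 11. Cflar moved from rank 7 to rank 4, at 45.9 ± 0.081. Birc3 (31.7 ± 0.20) and Bcl2l1 (30.1 ± 3.2) did not differ beyond their spread. Bcl2l11 was at 21.6 ± 0.74, Birc2 at 12.5 ± 1.5, Pmaip1 at 10.9 ± 1.3 and Bcl2a1a at 8.78 ± 0.29 CPM per kb. Pmaip1 went from rank 3 to rank 9 at the same level of 10.9. BIM transcripts were below NOXA transcripts per kb in untreated wild-type cells (3.20 against 10.9) and above them after LPS (21.6 against 10.9). The untreated gap rests on the merged exon lengths, 8029 bases for Bcl2l11 and 2732 for Pmaip1. In CPM their untreated means were 25.7 and 29.8.

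In KO cells the order differed in several places. Untreated, Birc3 had rank 3 at 10.9 ± 0.50 CPM per kb and Pmaip1 rank 5 at 8.45 ± 1.3, with Bcl2l1 between them at 8.78 ± 1.7, and Birc2 (7.84 ± 1.1) stood above Cflar (6.18 ± 0.020). After LPS, Bcl2l1 (34.7 ± 4.8) and Birc3 (33.9 ± 0.44) did not differ beyond their spread. After LPS, Pmaip1 was last at 7.42 ± 0.44 CPM per kb, below Bcl2a1a at 8.83 ± 0.20. With LPS plus inhibitor Pmaip1, at 9.55 ± 0.72, and Bcl2a1a, at 9.01 ± 2.6, did not differ beyond their spread.

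**Figure D4:**
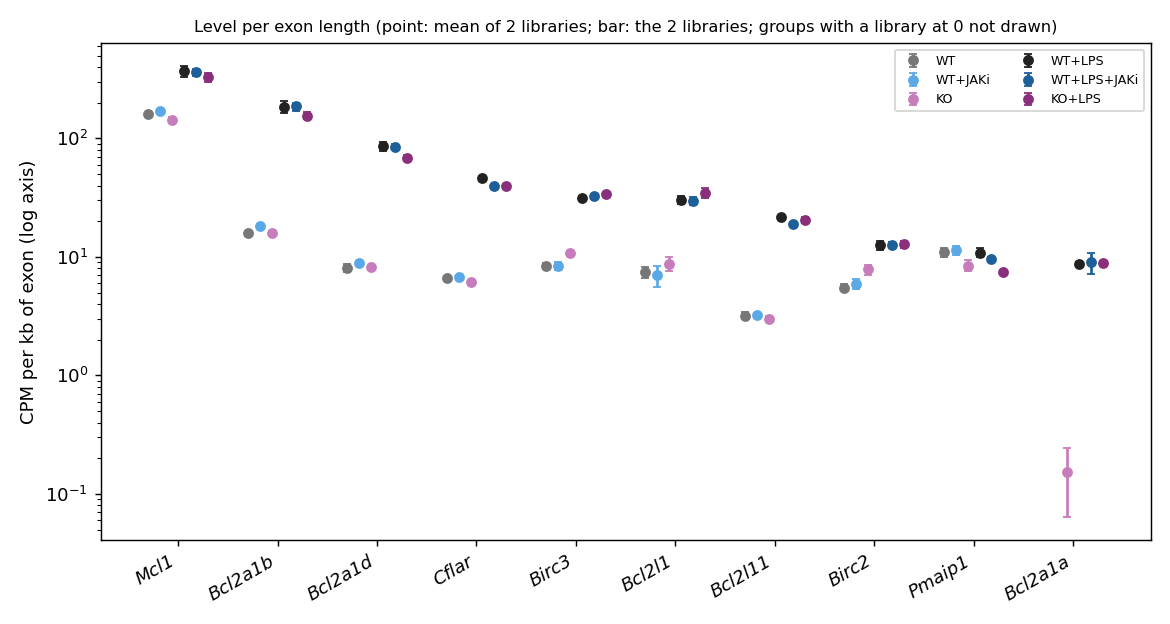
Level of each gene per kb of merged exon (log axis), with points for the mean of 2 libraries, bars joining the libraries, and groups with a library at 0 left out. By this measure Mcl1 is the highest in all 6 groups, and Bcl2a1a is the only gene below 1 CPM per kb. Lengths of the Bcl2a1 copies include stretches shared with other genes, so their points are uncertain.

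The libraries numbered 1 and 2 differed in a like way across groups for most of these genes. Mcl1, Bcl2l11, Pmaip1 and Birc2 were higher in library 1 in 6 of 6 groups, by ratios of 1.03 to 1.23, 1.05 to 1.16, 1.09 to 1.24 and 1.10 to 1.22. Bcl2l1 and Birc3 were lower in library 1 in 6 of 6 groups, with ratios of 0.666 to 0.860 and 0.848 to 0.991. In each of the 4 groups of the genotype comparisons, this spread of Bcl2l1 was larger than its difference between genotypes. Cflar stayed within 0.948 to 1.06. What the numbers stand for is not given in the labels.

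**Figure D5:**
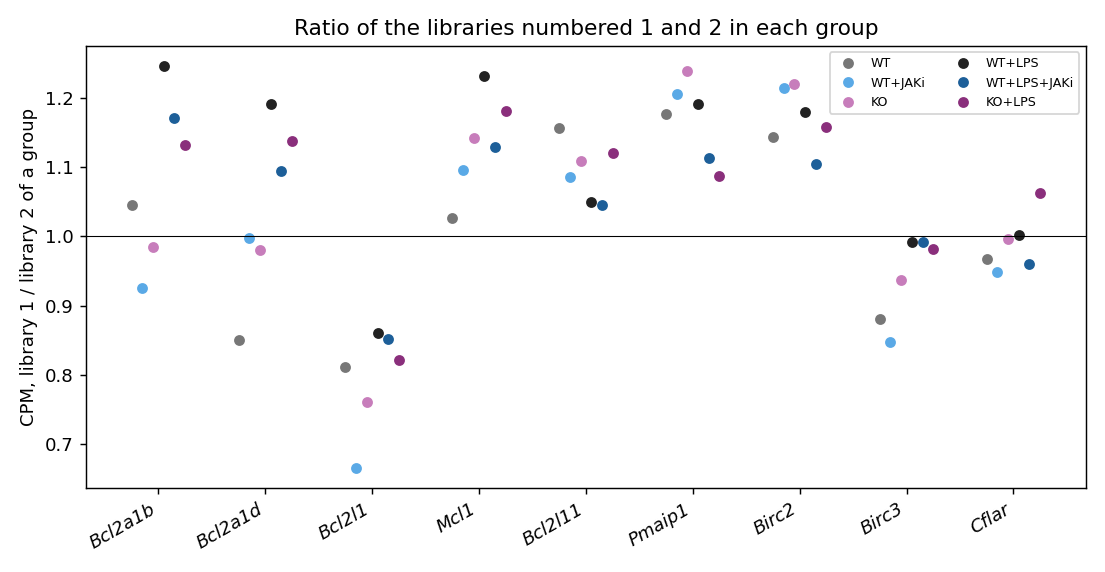
Ratio of CPM in library 1 to library 2 of each group (vertical axis, line at 1) for 9 genes, without Bcl2a1a, which had libraries at 0. All 6 groups lie above 1 for Mcl1, Bcl2l11, Pmaip1 and Birc2, and below 1 for Bcl2l1 and Birc3.

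The rest of the BCL2 and IAP families is described by counts, to be read against the shares of all tested genes called in wild-type cells, 13.7% higher and 53.6% lower, or 26.4% and 32.5% after median-of-ratios scaling. Of the other multidomain BCL2 family genes, 0 rose and 5 of 6 tested fell with LPS in wild-type cells (median -0.36; 1 higher and 1 lower after median-of-ratios scaling), such as Bcl2, from 11.9 ± 0.051 to 4.57 ± 0.78 CPM (log2 change -1.22). Of the other BH3-only genes, 0 rose and 5 of 6 fell (median -0.62; 0 and 4 rescaled), among them Bmf (-3.33) and Bid (-0.82). Of the other IAP and NAIP genes, only Xiap rose (0.50) and 4 of 6 fell (median -0.65; 1 and 4 rescaled). The 1 increase among these 18 genes is a smaller share than that of all genes that rose. These lists, however, leave out the family members followed above, which were chosen with earlier results of these data known. All of those members but Pmaip1 rose in wild-type cells. Leaving them out lowers the share of increases and raises the share that fell. The shares given here therefore cannot show whether the families as a whole differ from all genes. In each of these lists the share that fell was larger than the 53.6% of all genes. After rescaling this held for the BH3-only and the IAP and NAIP genes, but not for the multidomain genes. Whether these shares of few genes differ from those of all genes was not tested. These counts stand beside increases of Bcl2l11 among the BH3-only genes, of Mcl1, Bcl2l1 and the Bcl2a1 copies among the multidomain genes, and of Birc2 and Birc3 among the IAPs.

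The other lists were mixed, with the same shares of all genes as background. Of the death receptor genes 4 of 17 rose and 7 fell (median -0.09; 8 and 3 rescaled), with Tnf, the ligand, at 5.86 and its adaptor Traf1 at 5.35, while Fadd fell (-1.17). Of the caspase and apoptosome genes 0 rose and 9 of 13 fell (median -0.55; 1 and 7 rescaled), such as Casp2 (-1.66) and Apaf1 (-1.23). Of the NF-kB survival genes 10 of 11 rose and 0 fell (median 2.41), led by Tnfaip3 (5.40) and Gadd45b (4.92). Of the necroptosis and pyroptosis genes 4 of 8 rose and 2 fell (median 0.18; 5 and 0 rescaled). Of the p53 targets, 4 of 14 rose and 6 fell (median -0.05; 6 and 4 rescaled), with Fas at 4.20 and Sesn1 at -3.23. With the replicate block the counts higher and lower were 1 and 5 of 6 multidomain, 1 and 5 of 6 BH3-only, 1 and 5 of 6 IAP and NAIP, 5 and 8 death receptor, 0 and 12 caspase, 11 and 0 NF-kB survival, 4 and 3 necroptosis and 6 and 7 p53 target genes. The all-gene median was -0.30 on the same scale.

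Between genotypes, the lists' counts are likewise to be read against all tested genes, of which 9.68% were called untreated and 13.9% after LPS, or 24.6% and 31.5% with the replicate block. Untreated, 1 higher and 0 lower of 6 multidomain, 0 and 1 of 6 BH3-only, 0 and 0 of 6 IAP and NAIP, 1 and 0 of 17 death receptor and 1 and 1 of 13 caspase genes passed, and with the block 1 and 0, 1 and 1, 0 and 1, 1 and 2, and 2 and 4. After LPS the counts in the same order were 1 and 0, 0 and 0, 0 and 0, 0 and 0, and 0 and 3, and with the block 2 and 0, 1 and 1, 0 and 3, 0 and 3, and 2 and 5. Of 8 necroptosis, 11 NF-kB survival and 14 p53 target genes, 1 and 2, 0 and 0, and 3 and 0 passed untreated. With the block these were 2 and 3, 0 and 0, and 3 and 3. Their counts after LPS were 1 and 3, 2 and 0, and 2 and 2, and with the block 1 and 3, 3 and 2, and 4 and 4. Bax is in both the multidomain and the p53 target list. Named from these lists by their size of change, Bax, a pore former and the counterpart of the anti-apoptotic members, was higher in KO cells, at 152 ± 1.4 against 116 ± 3.5 CPM untreated (0.39, adjusted p = 0.0031) and at 146 ± 6.2 against 98.3 ± 5.4 CPM after LPS (0.56, adjusted p = 2.6e-04). Bmf was lower untreated (-1.22, adjusted p = 0.029). Ripk3, a necroptosis kinase, was higher by 0.59 and 0.66, and its substrate Mlkl was lower (-0.53 and -0.63). Zbp1, of the same list, was lower in KO after LPS (-1.20, adjusted p = 0.017). Of the NF-kB survival genes, Ier3 was higher in KO after LPS, at 379 ± 41 against 165 ± 2.5 CPM (1.19, adjusted p = 2.8e-05). With the inhibitor and LPS, 1 gene of all 8 lists passed against LPS alone, the necroptosis sensor Zbp1 (-1.55, adjusted p = 0.025), where 1.11% of all tested genes did. With the block, which called 4.09% of all tested genes, 1 multidomain gene and 1 p53 target passed as higher and 1 death receptor and 2 necroptosis genes as lower.

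Likeness of pattern was measured as Pearson's r of log2(CPM + 1) over the 12 libraries, among 9556 genes with a group mean of at least 5 CPM. The libraries fall into those with and without LPS, and every r over them mostly restates that split. The 9 genes other than Pmaip1 had r of 0.90 or more with each other, and Pmaip1 had r of -0.45 to -0.10 with them. The genes most like Bcl2a1b were Clec4e, Nfkbiz and Il1a, those most like Bcl2l11 were Il1b, Pim1 and Nfkbiz, and those most like Cflar were Irg1, Peli1 and Tnfaip3 (r at or above 0.998). Birc2 came nearest to Lacc1, Id3 and Morf4l2 (0.99, 0.99 and 0.98), and Birc3 to Zbtb32, Ptgs2 and Marcksl1. Those nearest to Mcl1 were Btg1, Actr3 and Fam133b. Bcl2a1a was nearest to Marcks, Il1bos and Jak2, and Bcl2a1d to Clec4e, Il1a and Tnfaip3. Pmaip1 was nearest to Mpp1, Clybl and Vps54 (0.97, 0.96 and 0.95).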

How the data were processed

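RNA was measured in 12 libraries of RAW 264.7 cells in 6 groups of 2. Per the labels' protocols, total RNA went into TruSeq mRNA libraries. Per the submitters' processing notes, the authors used TopHat2 2.1.0, HTSeq and edgeR, and the builds named there are mm10 and GRCm38. The sources used here do not state other versions, the annotation, the strand setting or the read length. The deposited CPM, made by the authors, were scaled to all counted alignments, with 5 HTSeq summary lines among them. In each library 100% of values were whole reads within 0.02 reads, so counts were recovered, and CPM were recomputed over gene reads (35940669 to 45662896 per library). A further 4 per-sample columns matched no sample label and were not used.

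The main test was limma 3.58.1 (trend; R 4.3.3) on log2(CPM + 1), as 1 model of the 6 groups with 6 residual degrees of freedom. Genes entered if 2 or more libraries had 1 CPM or more (10899 of 24421). P-values were Benjamini-Hochberg adjusted per comparison over all tested genes, with a threshold of 0.05, in 9 comparisons. The script was tested on simulated data. Alternatives were median-of-ratios or deposited scaling, a pseudocount of 0.25, a filter of 5 CPM or none, a replicate block, a fit of only the groups compared, edgeR 4.0.16 (quasi-likelihood) and DESeq2 1.42.0 on recovered reads, and each library left out. In the fit of only the groups compared, spread comes from few libraries. Libraries of the same number deviated together in all 15 pairs of groups (correlation across genes of the difference between numbers 0.47 to 0.74, median 0.62). No label names a shared day or batch. The main fit, its SEs and its intervals therefore do not pair the libraries, and only the replicate block does. The blocked value stands beside a result of the 10 genes where it changed the call, and blocked counts stand beside those of the pathway lists.

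All 10 genes are named in each comparison. Of the pathway lists, at most 2 genes per direction with the largest called change and at least 5 CPM in the higher group are eligible, and per gene the 3 most alike in pattern (those of Bcl2l1 are not reported here). The genes and lists were chosen with earlier results of these data known. Positions are from GENCODE M21 and promoters from RefSeq (GRCm38.p6). With 2 libraries a group, small differences can be missed, and intervals on reads cover counting error only.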

Additional observations from a re-analysis of the deposited data

Results flagged for a closer look

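Birc2 differed in its LPS change between genotypes when the replicate number was a block: the KO change was smaller, by a log2 difference of -0.46 (adjusted p = 0.0021 in limma, 0.74 without the block), with 0.66 and 0.73 in KO against 1.18 and 1.13 in wild-type libraries of the same number. Ier3, an NF-kB survival gene outside the 10, had a larger LPS change in KO cells, by 1.20 without the block (SE 0.12, adjusted p = 0.0038).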

How the results depend on the processing

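The 9 increases with LPS kept their direction and call under every alternative run, in wild-type cells, KO cells and with the inhibitor. Bcl2a1a gave no value in 2 fits of only the groups compared, both without LPS. These were KO against wild type untreated and the inhibitor alone, where it did not pass the filter. Pmaip1 in wild-type cells changed sign with DESeq2, from -0.01 to 0.33 (adjusted p = 0.044), as it did with edgeR (0.30) and under median-of-ratios scaling.

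For KO against wild type untreated (1 of the 10 genes), the count was 2 under median-of-ratios scaling, deposited scaling, edgeR and DESeq2, 4 with the replicate block, 0 with only the groups compared and 0 to 1 with a library left out. The second gene under deposited scaling was Cflar, lower (adjusted p = 0.047), and Birc2 in the others. Over all genes the count of 1055 became 2685 with the block and 477 to 548 with a library left out. After LPS (2 of 10), it was 1 without a filter or with only the groups compared, 6 with the block and 0 to 1 with a library left out; over all genes 1510 became 3438 with the block, 868 with only the groups compared and 871 to 934 with a library left out. Bcl2a1d passed as lower there under deposited scaling (adjusted p = 0.040) and DESeq2 (0.039). The cause of these shifts was not tested.

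For the difference of LPS changes between genotypes (0 of 10, 45 of all), the block gave 1 and 413, a pseudocount of 0.25 gave 19 over all genes, no filter 76, edgeR 10, DESeq2 80 and a library left out 18 to 34. For the inhibitor with LPS (0 and 121), the block gave 1 and 446, DESeq2 gave 1 of the 10, and a library left out 59 to 96 over all genes. For the inhibitor alone (0 and 0), all genes gave 4 with the block, 2 with DESeq2 and 0 to 1 with a library left out. For its difference of LPS changes (0 and 64), all genes gave 318 with the block, 36 with only the groups compared, 118 with DESeq2 and 30 to 54 with a library left out. For the 10 genes, the block changed no other call than those given above. In the pathway lists it also gave calls in the difference of LPS changes between genotypes: 2 higher NF-kB survival genes in place of 1, 1 lower necroptosis gene, and 1 higher and 1 lower p53 target, in place of 0 each. With a library left out, only values called in the main fit could lose their call. Those lost were all of calls between genotypes, of Birc3, Pmaip1 and Cflar, named above.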
